A study of Homo sapiens with 12 samples.

Results

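The cytosolic ribosomal protein genes encode the proteins of the ribosome that translates nuclear mRNAs. They were taken as every row of the expression table whose symbol is RPL or RPS followed by a number, with or without a final A or X, together with RPLP0, RPLP1, RPLP2 and RPSA. This gave 77 genes of 35337 rows, of which 46 encode proteins of the large subunit and 31 proteins of the small subunit. All 77 were expressed far above the filter on low values, with at least 210 reads in each library, so that none dropped out of the 13847 genes tested.

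Each ribosome carries its proteins in fixed proportions, and the small subunit reads the mRNA while the large subunit forms the peptide bond. The mRNAs of these genes mostly begin with a C followed by a run of pyrimidines, the 5′ terminal oligopyrimidine (TOP) tract, through which mTOR signalling and the RNA-binding protein LARP1 set their translation. Beta cells devote much of their translation to insulin. In stressed or senescent cells, ribosomal proteins that are left outside the ribosome can bind MDM2 and stabilise p53.

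The cells were EndoC-βH3, a human pancreatic beta-like line labelled WT, which carries SV40 Large T-antigen and hTERT and a tamoxifen-activated CreER recombinase that can cut both out. Senescent cells had received 4-hydroxy tamoxifen for 3 weeks, and non-senescent cells were the control. All samples came from this 1 line, and the agent and the loss of both transgenes cannot be told apart in this design. Poly(A) RNA was read from its 3′ end by CEL-seq2 in 6 libraries of each group, 2 of each in batch A and 4 of each in batch B, the letters given in the sample titles.

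Libraries held 4672924 to 17106776 reads. The response to the treatment was plain in its best known markers, since the proliferation gene MKI67 fell by 2.83 on the log2 scale and the p53 target CDKN1A rose by 3.92. Its size differed between the batches. MKI67 was at -3.45 within batch A and -2.51 within batch B, and CDKN1A at 2.18 and 4.78. Both passed the test of the interaction of batch and group (limma adjusted p = 0.022 and 0.0019). All 9 beta-cell markers were detected, and together they took 73580 to 91070 CPM (reads in 1000000 reads of a library) in non-senescent and 86210 to 115300 CPM in senescent cells. CHGA made up most of this sum, with mean normalised read counts of 553100 and 646100, against 19850 and 99550 for INS. The markers went both ways. Of the 9, 4 rose (INS, IAPP, PDX1 and CHGA) and 2 fell, PCSK1 (-1.055 on the log2 scale) and NKX6-1 (-0.37). The 15 markers of acinar, ductal, fibroblast, endothelial and leukocyte cells took 44.9 to 73.4 and 32.9 to 63.3 CPM, and VWF had no read. Of the 6 of these above the filter on low values, CPA1 (acinar) rose, with normalised read counts of 33.9 to 58.4 in non-senescent and 143 to 248 in senescent libraries. KRT19 (ductal) fell, with 236 to 378 and 75.9 to 157, as did PTPRC (leukocyte), with 3.9 to 26.1 and 2.1 to 5.4. COL1A1, PECAM1 and CD68, the others above the filter, did not pass the test described below. PRSS1, CEL and CFTR were below the filter and near 0. The part of these changes in the results below was not tested. Values below are normalised read counts. Differences were tested across all genes with limma on log2(value + 1) with batch in the model, and a gene is said to have risen or fallen when its Benjamini-Hochberg adjusted p was under 0.1. A gene is called when its change also exceeded 1.5-fold. Where no source says that libraries came from separate cultures, p-values measure the spread between these libraries, and in bulk RNA fewer cells and less RNA per cell cannot be told apart.

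The sequences below show where transcription starts in genes at both ends of the range described next, and whether a TOP tract stands there. They are the 3 members with the highest and the 3 with the lowest change among those with exactly 1 start in the RefSeq promoter table (GRCh38.p14). Each shows 40 bases before the annotated start and 20 bases from it, 5′ to 3′ on the gene's strand. Capitals mark a tract of at least 5 C or T that opens with a C, not itself preceded by a C, within 5 bases of the start.
RPL3: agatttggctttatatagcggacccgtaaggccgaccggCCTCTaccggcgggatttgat
RPL4: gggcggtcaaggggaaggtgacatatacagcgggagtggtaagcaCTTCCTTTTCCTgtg
RPS3A: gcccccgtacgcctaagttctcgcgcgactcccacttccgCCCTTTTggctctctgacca
RPS15: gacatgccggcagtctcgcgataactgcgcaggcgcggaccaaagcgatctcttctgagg
RPS16: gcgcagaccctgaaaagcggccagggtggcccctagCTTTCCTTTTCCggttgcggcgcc
RPLP2: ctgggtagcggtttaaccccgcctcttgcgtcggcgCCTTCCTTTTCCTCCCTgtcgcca

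These stretches lie at chr22:39319604-39319663 (minus strand) for RPL3, chr15:66504836-66504895 (minus) for RPL4, chr4:151099588-151099647 (plus) for RPS3A, chr19:1438356-1438415 (plus) for RPS15, chr19:39435930-39435989 (minus) for RPS16 and chr11:809927-809986 (plus) for RPLP2. The tract spans 5 bases in RPL3, 7 in RPS3A, 12 in RPL4, 12 in RPS16 and 17 in RPLP2, and none meets the definition in RPS15. A tract was present in 53 of the 62 members that matched the table, or 85.5%, against 23.7% of all 27305 genes with a window in it and 20.3% of 69 genes of the mitochondrial ribosome. The shares were alike in the large subunit (33 of 38) and the small subunit (20 of 24). The median change of the 53 members with a tract was -0.02 and that of the 9 without was 0.13, both on the log2 scale. Members with the tract were thus found among those that rose (11) and among those that fell (15).

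In senescent cells the 77 genes did not move as one block. Of them, 17 rose and 24 fell, while 36 did not pass the test. Over all genes tested, 23.2% rose and 22.3% fell, and the members' shares were 22.1% and 31.2%. Their changes were small. The log2 fold changes of the members had an SD of 0.28 against 0.71 over all genes, and their median was -0.03 against 0.01. Only 2 members were called at 1.5-fold, RPL3 as higher and RPLP2 as lower, where 23.4% of all genes tested were called.

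**Figure D1:**
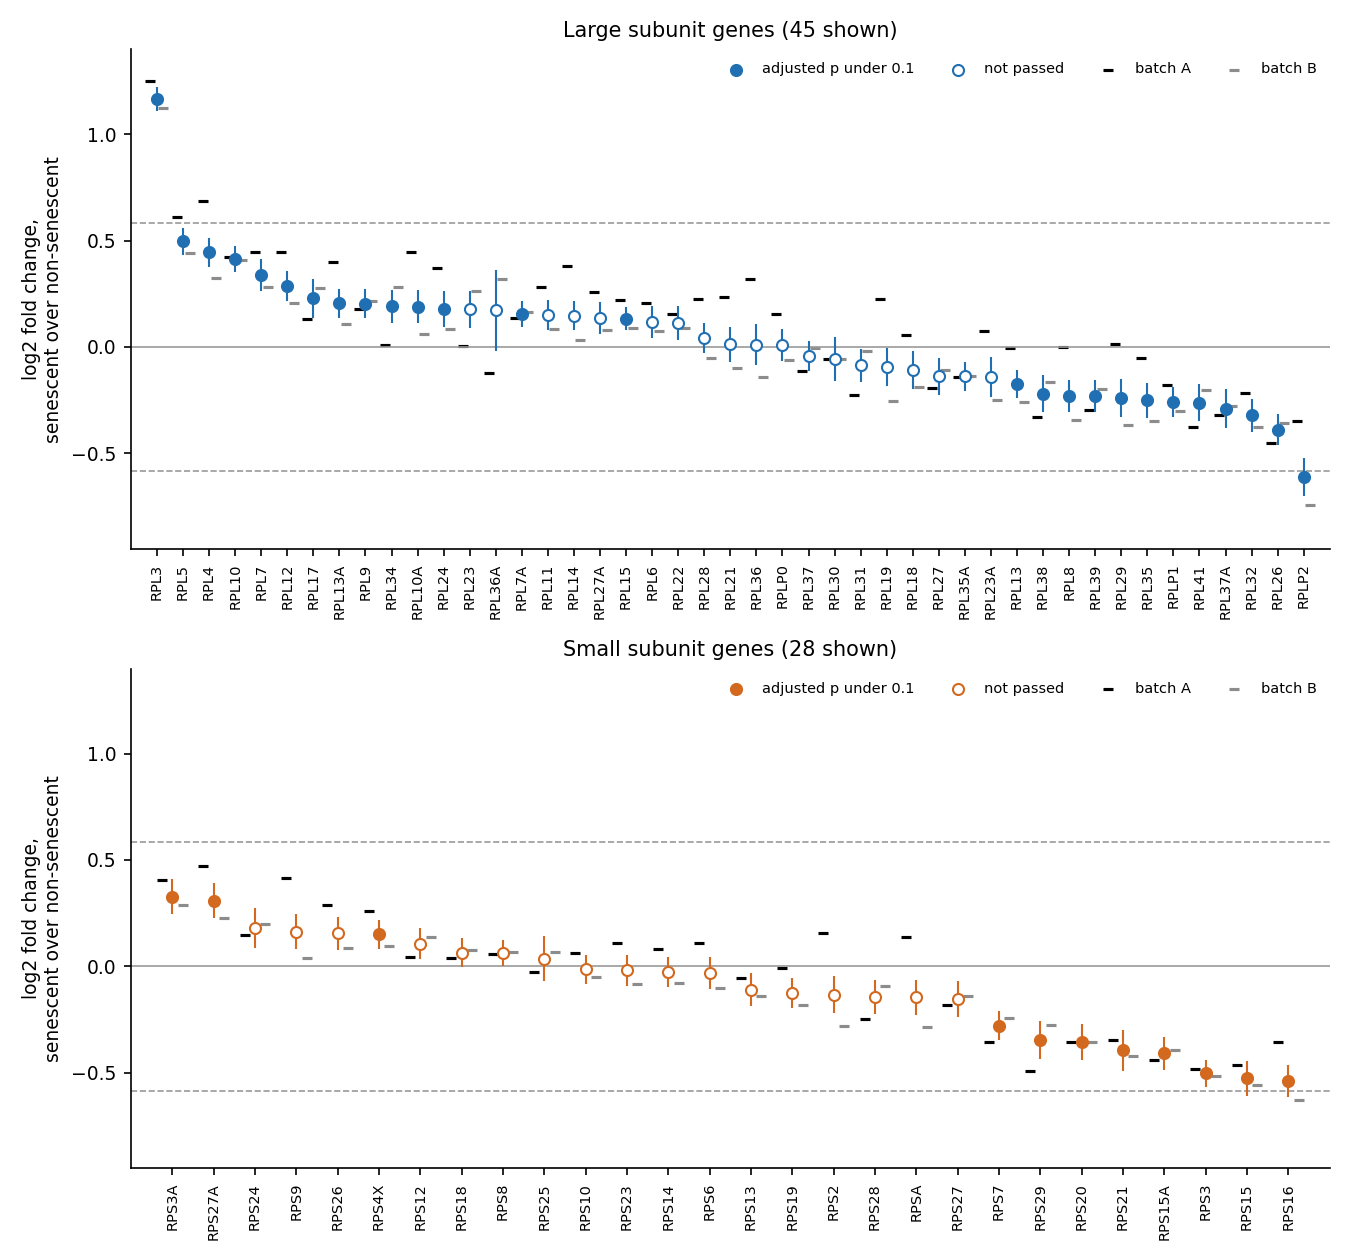
The log2 fold change (senescent over non-senescent) is shown for 45 large subunit genes (top) and 28 small subunit genes (bottom), in falling order, with 1 SE as the bar, and filled points passed adjusted p under 0.1. Short dashes give the change within batch A (black) and batch B (grey), and the broken lines mark 1.5-fold. RPL3 at 1.17 stands apart from the next gene, RPL5 at 0.50, and the 4 lowest values shown lie between -0.50 and -0.61.

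The counts differed by subunit. In the large subunit 14 genes rose and 13 fell, with a median of 0.01, whereas in the small subunit 3 rose (RPS3A, RPS27A and RPS4X) and 11 fell, with a median of -0.12. Within batch A the median was 0.10 for large and -0.01 for small subunit genes, and within batch B it was -0.03 and -0.14. The gap between the medians of the subunits was 0.14 on the log2 scale, and it kept its sign in every alternative run, from 0.10 to 0.15. The counts moved more. With the same total in every library 6 rose and 19 fell in the large and 2 and 17 in the small subunit. Batch A alone gave 16 and 7 against 5 and 10, and batch B alone 9 and 10 against 1 and 13. Without the non-senescent library B3, 9 large subunit genes rose, and without the senescent B3, the non-senescent B4 or the senescent B4 the small subunit had 6, 5 and 5 that rose.

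The same difference can be read from the libraries without any scaling between them, as the ratio of large to small subunit reads within each library. In batch A this ratio was 1.11 and 1.09 in the non-senescent libraries and 1.29 and 1.28 in the senescent libraries. In batch B it was 1.30, 1.29, 1.29 and 1.28 in the non-senescent libraries and 1.456, 1.498, 1.523 and 1.469 in the senescent libraries. All senescent libraries lay above all non-senescent libraries of their own batch, and the gap within batch was larger than the spread among replicates (SD 0.01 and 0.01 in batch A, 0.01 and 0.03 in batch B, n = 2 and 4 per group). The batches themselves differed as much as the groups. Without RPL3, the ratio still ran from 1.06 and 1.08 to 1.21 and 1.22 in batch A, and from between 1.24 and 1.27 to between 1.38 and 1.43 in batch B.

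By subunit, the share of reads differed more for the small subunit. Large subunit genes took 2.34% ± 0.06 (SD, n = 2) of the reads of non-senescent and 2.39% ± 0.04 of senescent libraries in batch A, and 2.42% ± 0.17 and 2.33% ± 0.14 (SD, n = 4) in batch B. Small subunit genes took 2.13% ± 0.03 and 1.86% ± 0.01 in batch A, and 1.88% ± 0.13 and 1.57% ± 0.12 in batch B. For the small subunit the groups did not overlap in batch A, whereas in batch B the lowest non-senescent library, at 1.69%, lay just below the highest senescent library, at 1.70%.

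**Figure D2:**
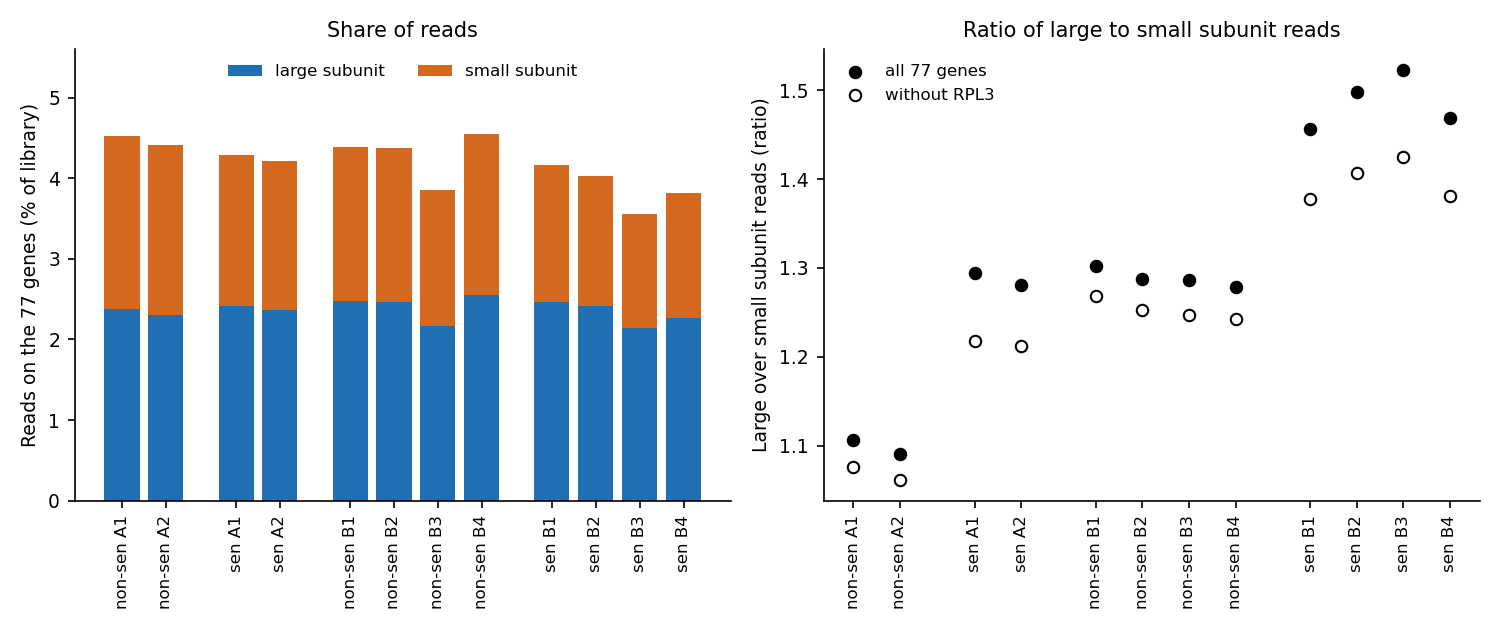
Left, the percentage of each library's reads on large and small subunit genes, stacked. Right, the ratio of large to small subunit reads per library, for all 77 genes and without RPL3, on an axis that starts above 0. Within each batch the senescent libraries lie above the non-senescent ones, with 1.28 to 1.29 over 1.09 to 1.11 in batch A and 1.46 to 1.52 over 1.28 to 1.30 in batch B.

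Together the 77 genes took 4.35% ± 0.25 of the non-senescent reads and 4.01% ± 0.28 of the senescent reads (SD over libraries, n = 6). The counting error of such a share is small, since the 95% Wilson interval of the library at 3.86% was 3.84% to 3.88%, and it covers counting error only. In batch A the shares were 4.53% and 4.41% against 4.29% and 4.22%, without overlap. In batch B they ran from 3.86% to 4.55% and from 3.56% to 4.16%, with overlap. The lowest share of each group came from the library numbered B3, in which 69 members in the non-senescent and 54 in the senescent group had their lowest value among the 4 libraries of that group and batch. Without both B3 libraries 13 members rose and 24 fell, and the same 2 were called. Other abundant RNAs moved alongside, because the mitochondrially encoded rows took 20.04% (non-senescent) and 24.7% (senescent) of the reads in batch A and 15.9% and 17.4% in batch B, and INS took 0.43% and 2.27%, and 0.21% and 0.82%. When both were left out of the total, the members took 5.62% and 5.83% of the rest in batch A, and 5.12% and 4.76% in batch B, so that the direction differed between batches.

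Around the peptidyl transferase centre, the site where the peptide bond is made, lie RPL3, RPL4, RPL8 and RPL10. Of these, 3 rose and RPL8 fell. RPL3 (22:39312882-39320389, minus strand, GENCODE v44 on GRCh38) had the largest change of all members. Its values were 4478 and 4300.2 in non-senescent and 10874 and 10048 in senescent libraries of batch A. In batch B they were 4689, 4654, 4493 and 5100.2 in non-senescent and 10115, 10785, 10326 and 10031 in senescent libraries. All 6 senescent values lay above all 6 non-senescent values, and the batches gave similar levels. The change was 2.25-fold, or 1.17 on the log2 scale (SE 0.06, limma adjusted p = 5.86e-11). Batch A alone gave 1.25 and batch B alone 1.12. RPL3 stayed called in every alternative run, with log2 fold changes from 1.06 to 1.25. Its processed copy RPL3P4 was listed at 77.8 and 99.3 in non-senescent and 512 and 331 in senescent libraries of batch A, and at 0 in all of batch B.

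RPL4, which reaches into the peptide exit tunnel, was 3010.1 and 3061 in non-senescent and 4891 and 4865 in senescent libraries of batch A. In batch B it was 2945, 2877, 2990 and 3293 in non-senescent and 3660, 3877, 3858 and 3762 in senescent libraries. The groups did not overlap in either batch, and the change was 0.45 (SE 0.07, limma adjusted p = 5.64e-05). It was larger in batch A (0.68) than in batch B (0.33). RPL10, which completes the large subunit late in its assembly, was 2263 and 2225 against 2912 and 3100.0 in batch A. In batch B it was 1644, 1542, 1457 and 1645 against 1972, 2198, 1941 and 2236. Its change was 0.41 (SE 0.06), and the batches gave 0.42 (A) and 0.41 (B). RPL8 fell by 0.23 on the log2 scale, at 0.00 for batch A against -0.35 for batch B, where the groups were apart.

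The 5S ribonucleoprotein joins the large subunit as one unit and is also known as an inhibitor of MDM2. RPL5, 1 of its proteins, was 8315 and 7723 in non-senescent and 12992 and 11515 in senescent libraries of batch A. In batch B it was 7666, 8169, 7400 and 8987 in non-senescent and 11431, 10852, 11071 and 10265 in senescent libraries. The groups did not overlap in either batch, and the change was 0.50 (SE 0.07, limma adjusted p = 1.17e-05). RPL11, its partner, was 4752 to 4800 against 5693 to 5922 in batch A, and 2199 to 2835 against 2590.1 to 2919 in batch B, where the groups overlapped. Its change of 0.15 (SE 0.07) did not pass the test, at a limma adjusted p of 0.106. A further riser was RPL7, another large subunit protein, with 0.34 (SE 0.07), whose groups also did not overlap in either batch.

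The stalk recruits the GTPase factors of translation, and RPLP0 anchors RPLP1 and RPLP2 to the ribosome. RPLP2 (11:809965-812880, plus strand) was 4139 and 3768 in non-senescent and 3055 and 3148 in senescent libraries of batch A. In batch B it was 1446, 1469, 1274 and 1604 in non-senescent and 999.8, 898, 769 and 796 in senescent libraries. All senescent values were below all non-senescent values of their batch. RPLP2 fell by 0.61 on the log2 scale (SE 0.09, limma adjusted p = 3.23e-05), or by -0.35 within batch A and -0.74 within batch B. It was just past the 1.5-fold limit, at 1.53-fold lower, and was not called when the non-senescent library B4 (-0.567), the senescent library B3 (-0.564) or the senescent library B4 (-0.575) was left out. Nor was RPLP2 called in batch A alone (-0.349) or in the fit without a batch term (limma adjusted p = 0.451). RPLP1 was 3788 and 4057 against 3780.3 and 3178 in batch A, and 3472 to 4239 against 2825 to 3382 in batch B. It fell by 0.26 (SE 0.07) without overlap in either batch, though in batch A only narrowly. RPLP1 did not pass in batch A alone (-0.178, limma adjusted p = 0.222) or without a batch term (limma adjusted p = 0.103). RPLP0 did not pass the test, with 0.01 (SE 0.07), and its sign depended on the scaling. The 3 stalk genes thus ran from -0.61 to 0.01.

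**Figure D3:**
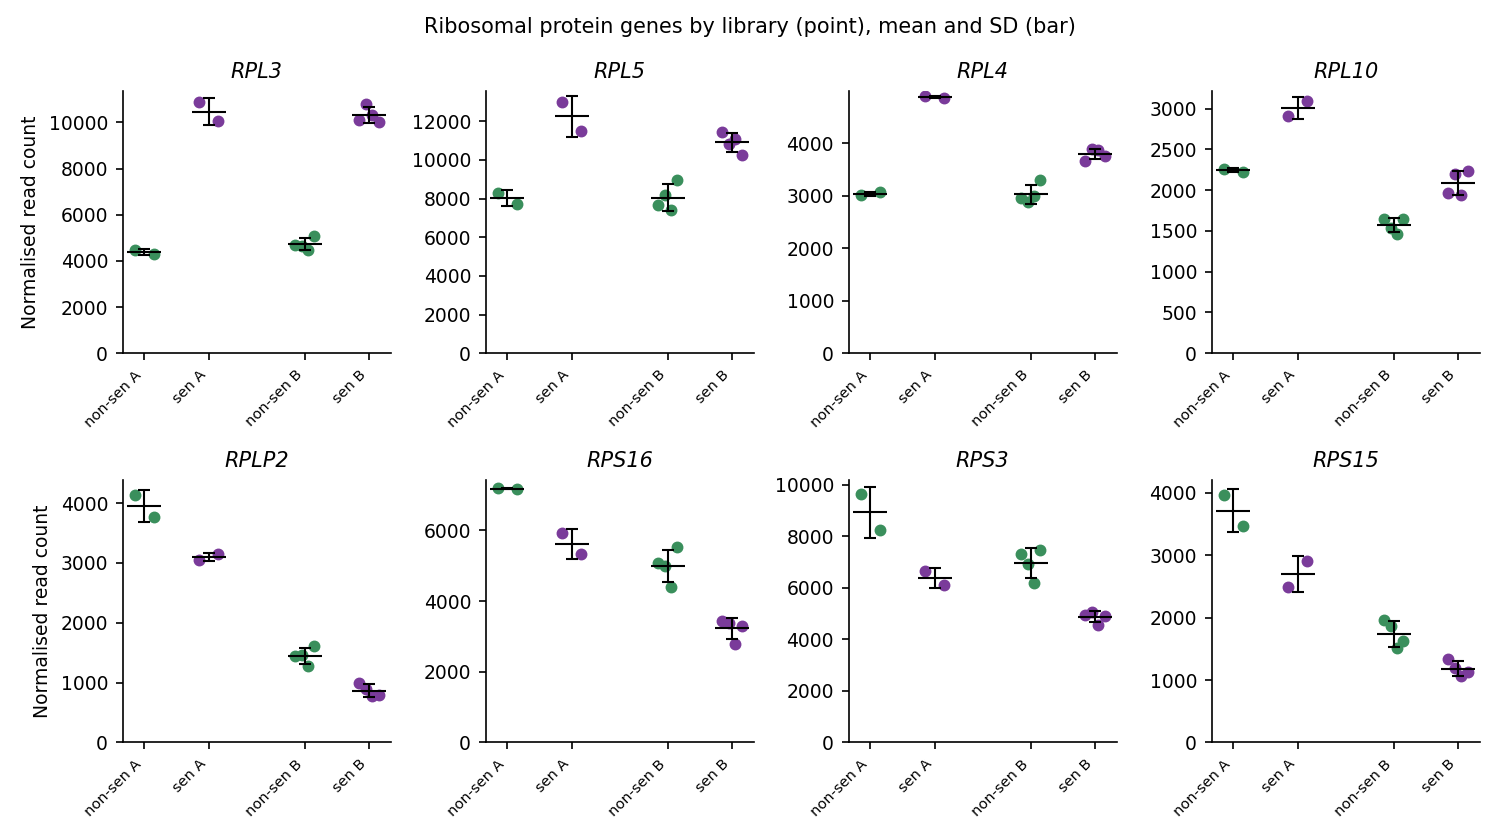
Normalised read counts of 8 named members in each library, as points, with the mean and SD as bars, for non-senescent (green) and senescent (purple) cells of batches A and B. RPL3, RPL5, RPL4 and RPL10 lie higher and RPLP2, RPS16, RPS3 and RPS15 lower in the senescent libraries of both batches.

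The nascent protein leaves through the exit tunnel, whose wall and mouth include RPL17, RPL22, RPL23A, RPL26, RPL35 and RPL39. RPL17 was at 0.23 on the log2 scale (SE 0.09, limma adjusted p = 0.0595), a rise that did not hold in 8 of 29 alternatives. With the reads of the overlapping row RPL17-C18orf32 added, an alternative chosen after seeing the data, it was 0.07 (limma adjusted p = 0.475), or 0.13 within batch A and 0.04 within batch B, where RPL17 alone gave 0.13 and 0.28. With the same total in every library it was 0.12 (limma adjusted p = 0.297), and without the non-senescent library B3 or the senescent library B1 it was 0.16 and 0.17 and did not pass. RPL26, RPL35 and RPL39 fell, by 0.39, 0.25 and 0.23. RPL22 (0.11) and RPL23A (-0.14) did not pass the test. RPL26 was 4479 and 4545 against 3198 and 3395 in batch A, and 1479 to 1786 against 1155 to 1487 in batch B, where 1 senescent library lay above the lowest non-senescent library.

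Among the small subunit proteins along the mRNA path, RPS3, at the mRNA entry, and RPS15, near the decoding site, fell, while RPS2, RPS9, RPS23 and RPS26 did not pass the test, with -0.13, 0.16, -0.02 and 0.15. RPS3 was 9642 and 8233 in non-senescent and 6670 and 6108 in senescent libraries of batch A. In batch B it was 7311, 6948, 6177 and 7470 in non-senescent and 4949, 5077, 4577 and 4894 in senescent libraries. The groups did not overlap in either batch, and RPS3 fell by 0.50 (SE 0.06, limma adjusted p = 8.38e-06), and alike in the batches (-0.48 and -0.51). RPS15 was 3956 and 3465 against 2488 and 2898 in batch A, and 1968, 1860, 1510 and 1630.1 against 1343, 1189, 1064 and 1124 in batch B. It fell by 0.53 (SE 0.08) without overlap.

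RPS16, whose tail reaches the tRNA in the P site, was 7205 and 7166 in non-senescent and 5923 and 5318 in senescent libraries of batch A. In batch B it was 5072, 4988, 4406 and 5520 in non-senescent and 3443, 3376, 2798 and 3307 in senescent libraries. It fell by 0.54 (SE 0.08, limma adjusted p = 2.47e-05). The groups did not overlap in either batch. RPS3, RPS15 and RPS16 lay between -0.50 and -0.54, under the 1.5-fold limit. With every library scaled to the same total these 3 were also called, which is the setting that lowered the median of all genes by 0.104.

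Other members with a role of their own moved less. RPS6, the substrate of the S6 kinases, had a change of -0.03 (SE 0.08), 0.11 for batch A and -0.10 for batch B, and did not pass. RPS27A, made as a fusion with ubiquitin, rose by 0.31 on the log2 scale (SE 0.08). It was 9898 and 9551 against 13235 and 13767 in batch A, and 3902 to 4453 against 4249.9 to 6076 in batch B, where the groups overlapped. RPSA, also known as the laminin receptor, moved oppositely in the batches, 0.14 for A and -0.29 for B, the groups not overlapping in either, and did not pass the joint test or the test of the interaction (limma adjusted p = 0.115). RPS4X, encoded on the X chromosome, was at 0.15 (SE 0.07, limma adjusted p = 0.0882), and this narrow pass was lost in 16 of 29 alternatives. Among these were no filter (limma adjusted p = 0.13), the replicate block (0.129), edgeR on reads (0.134 by its own test) and the same total (a change of 0.04), and 8 of the 12 omissions of a single library. RPS19 (-0.12) and RPL35A (-0.14), both mutated in Diamond-Blackfan anaemia, did not pass. RPL41, the shortest member, fell by 0.26 (SE 0.09).

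The remaining risers had smaller changes. RPS3A, a small subunit protein, rose by 0.33 on the log2 scale (SE 0.08), 0.41 for batch A and 0.29 for batch B. RPL12, at the base of the stalk, rose by 0.29, with 0.45 and 0.21 in the batches. RPL13A, a member known to leave the ribosome in the interferon response, rose by 0.20, with 0.40 and 0.11. The others, RPL9, RPL34, RPL10A, RPL24, RPL7A and RPL15, rose by 0.20, 0.19, 0.19, 0.18, 0.16 and 0.13. All of these except RPL34 have coding sequences between 471 and 798 bases, described further below.

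The remaining falls were found in both subunits. In the small subunit RPS15A (-0.41), RPS21 (-0.40), RPS20 (-0.36), RPS29 (-0.35) and RPS7 (-0.28) were among those that fell. In the large subunit RPL32 (-0.32), RPL37A (-0.29), RPL29 (-0.24), RPL38 (-0.22) and RPL13 (-0.17) were among them. All of these except RPL29 (0.01 within A, -0.37 within B) were below 0 in both batches, and RPS29 was at -0.49 and -0.28. The 36 members that did not pass the test had changes from -0.15 (RPS27) to 0.18 (RPS24), with 19 large and 17 small subunit genes among them. A median SE of 0.08 on the log2 scale was the precision behind these values.

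Across all 77 members, 59 changed in the same direction in both batches. For 14 members the senescent and non-senescent libraries were separated, and in the same direction, within each batch. Of these, 6 were higher in senescent cells (RPL3, RPL5, RPL4, RPL10, RPL7 and RPL7A) and 8 lower, among them RPLP1, RPL32, RPS3, RPS15, RPS16 and RPLP2. Over all genes tested, 23.8% showed such a separation, and 14 of 77 members is below that background. All 6 of the higher genes encode large subunit proteins, and 5 of the 8 lower genes encode small subunit proteins.

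The response differed between batches by the interaction test for 2 members, where 4.21% of all genes passed. For RPL4, given above, the difference was -0.36 (limma adjusted p = 0.0865). RPL36A, named after its values were seen, had the largest SE of all members, 0.19. It was 1545 and 1264 in the senescent libraries B1 and B2 and 626 and 592 in B3 and B4, against 672 to 818 in the non-senescent libraries of batch B.

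Levels of many members differed between the batches more than between the groups. Of the members, 32 were more than 1.5-fold higher in batch A and 14 in batch B at adjusted p under 0.1, and 53.1% of all genes tested passed this limit in either direction. RPL41 was 2482 to 3526 in batch A and 16046 to 23503 in batch B. RPLP0 was 677 to 843 in batch A and 3079 to 4052 in batch B. RPL17 was 2642 to 3117 in batch A and 307 to 547 in batch B. The group differences given here therefore have batch in the model or lie within a batch, and a fit without batch is given only as an alternative.

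Rows that resemble or overlap members moved with the batch too. RPL41P2, a copy of RPL41, was 6985 to 10308 in batch A and 4.98 to 15.1 in batch B, and RPS23P8, a copy of RPS23, was 8206 to 9816 in batch A and listed at 0 in all libraries of batch B. The read-through row RPL17-C18orf32 had no read in batch A and was 662 to 903 in batch B, and RPL36A-HNRNPH2 had 2 reads over all of batch A and was 214 to 424 in batch B. Adding each row to its member changed the difference between batches. The mean of RPL17 was 6.80-fold higher in batch A alone and 2.41-fold with its row, and that of RPL36A 2.29-fold and 1.68-fold. RPL41 was 6.56-fold higher in batch B, and 1.68-fold with RPL41P2. For RPS23 the order turned, from 1.59-fold higher in batch B to 2.89-fold higher in batch A with RPS23P8. For the comparison of the groups, adding the rows named as a member's pseudogene left RPL3 and RPLP2 as the called members, with 15 higher and 24 lower, and adding the read-through rows gave 16 and 24.

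Members with longer coding sequences had higher changes. The coding length of the annotated canonical transcript ran from 75 bases (RPL41) to 1281 bases (RPL4). Across the 77 genes, the log2 coding length and the log2 fold change had a Pearson r of 0.46 and a Spearman rho of 0.42, given as a description, since genes measured in the same libraries are not independent replicates. The r was 0.62 within batch A and 0.33 within batch B, and 0.40 without RPL3. Over 12692 genes tested with a length, r was 0.08. Ordered by length, the 27 shortest members (75 to 405 bases) had 1 gene that rose and 13 that fell, with a median of -0.15. The 25 of middle length had 5 and 6, with a median of -0.02, and the 25 longest (582 to 1281 bases) had 11 and 5, with a median of 0.13.

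The medians of the subunits lay furthest apart among the longest members. Of their 15 large subunit genes, 9 rose and 2 fell, with a median of 0.16, and of their 10 small subunit genes, 2 rose and 3 fell, with a median of -0.08. Among those of middle length 4 large subunit genes rose and 3 fell, with a median of 0.04, and 1 and 3 in the small subunit, with a median of -0.07. Among the shortest members the medians were -0.18 in the large and -0.15 in the small subunit. In the large subunit alone r was 0.56 (n = 46) and in the small subunit 0.24 (n = 31). The points share their libraries and depth. Length of the whole transcript, with its untranslated ends, showed a weaker relation, with r of 0.23 over the 77 members. That length is of the annotated canonical transcript, which has 7573 bases for 291 coding bases in RPL37 and 7136 for 645 in RPL14. Whether these cells use those transcripts was not tested. All genes tested with coding lengths up to the limit of the 27 shortest members had a median of -0.14 (n = 635), close to that of the short members, while genes in the range of the 25 longest had a median of -0.03 (n = 4182).

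**Figure D4:**
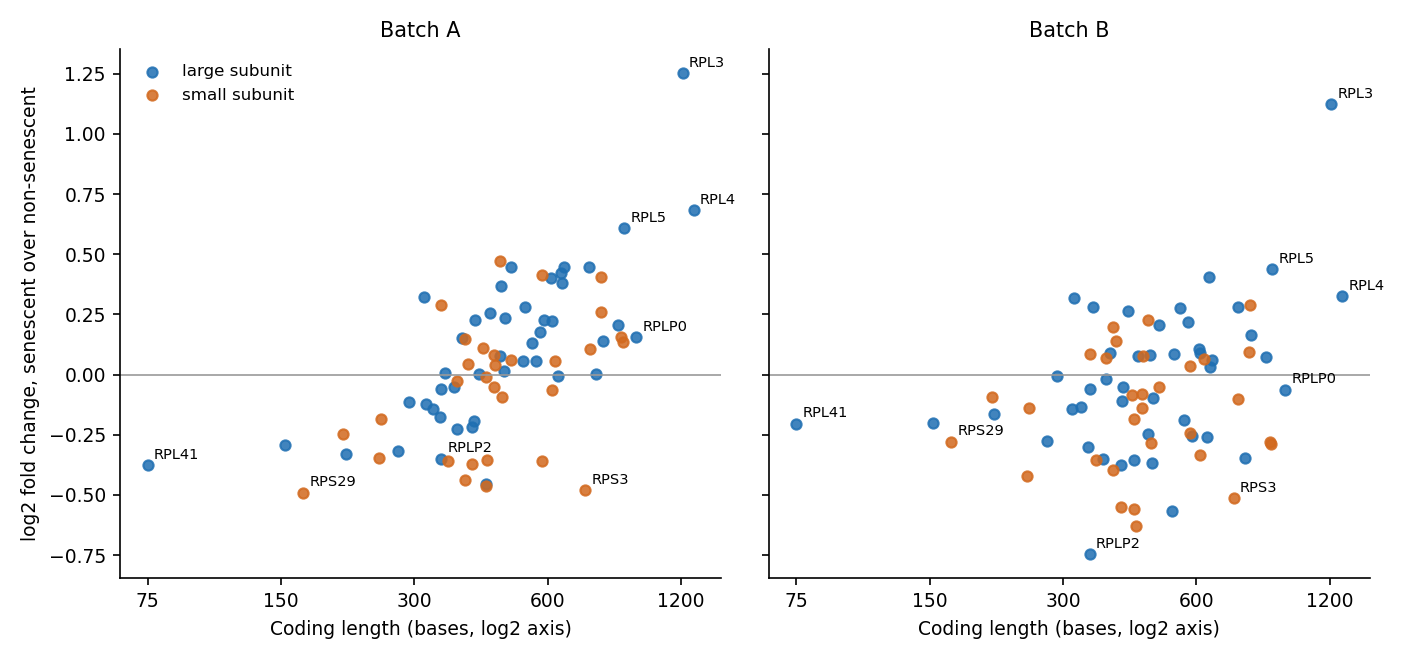
The log2 fold change (senescent over non-senescent) of each member against its coding length in bases on a log2 axis, within batch A (left) and batch B (right), coloured by subunit. Short members such as RPL41 and RPS29 lie below 0 in both panels and RPL3, RPL4 and RPL5 at the top right, r being 0.62 on the left and 0.33 on the right, and RPS3 lies low for its length.

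Other genes of the ribosome and of its production were counted from lists. Of the proteins of the cytosolic ribosome that carry other names, FAU, the precursor of a small subunit protein, fell by 0.25 on the log2 scale (SE 0.08), while RACK1 (0.00) did not pass. Of 6 tested paralogs of members, 2 rose and 2 fell. RPS27L, a paralog of RPS27 and a known p53 target, was 700 and 649 against 753 and 914 in batch A, and 867 to 961 against 1525 to 1721 in batch B. It rose by 0.66 on the log2 scale and was called. RPL39L, a paralog of RPL39, was 35.6 and 42.9 against 20.6 and 19.3 in batch A, and 120 to 152 against 27.5 to 66.7 in batch B, and was called with a fall of 1.33 on the log2 scale. RPS27 itself (-0.15) did not pass.

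The genes of the mitochondrial ribosome, a separate set that translates the mRNAs of the mitochondrial genome, moved mostly in 1 direction. Of 78 tested, 3 rose (MRPL1, MRPL42 and MRPS33) and 44 fell, with a median of -0.30, and 11 were called, all lower. The median was -0.10 within batch A, where 25 of the 78 were above 0, and -0.39 within batch B, where 7 were, and 5 passed the test of the interaction. The falls were found in both mitochondrial subunits, with 27 of 49 large and 17 of 29 small subunit genes. MRPL37 was 369 and 385 against 189 and 191 in batch A, and 324 to 443 against 148 to 171 in batch B. It fell by 1.18 on the log2 scale (SE 0.10), a 2.26-fold change. MRPL11 fell by 1.03 and MRPS15 by 0.90. MRPS24 fell by 1.02 with an SE of 0.41, since its senescent values in batch B were 32.7, 231, 43.5 and 207, and its change was 0.04 within batch A and -1.56 within batch B.

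Of 18 translation factors and other mRNAs known to carry TOP tracts, 9 rose and 5 fell, with a median of 0.15. EEF1A1, which brings aminoacyl-tRNA to the ribosome, was 12564 and 13785 against 20198 and 21441 in batch A, and 12143 to 14578 against 18118 to 21051 in batch B. It rose by 0.60 on the log2 scale (SE 0.06) and was called, as was its paralog EEF1A2 (0.63). The list held genes in both directions, since EEF1G (0.49) and EIF3E (0.41) rose while EEF1B2 (-0.36) and EIF3G (-0.32) fell. A TOP tract by the definition above stood at 8 of the 9 genes of this list with a window.

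Of 44 ribosome assembly factors, 4 rose and 17 fell, with a median of -0.17. NOP56, a core protein of the C/D box snoRNPs that methylate rRNA, was 730 and 599 against 501 and 444 in batch A, and 765 to 917 against 426 to 486 in batch B, and fell by 0.76 on the log2 scale (SE 0.09). BYSL, needed for small subunit maturation, fell by 0.68, and MDN1, an ATPase of large subunit maturation, rose by 0.66. MDN1 was 97.8 and 84.2 against 99.2 and 93.0 in batch A, with overlap, and 34.4 to 73.3 against 74.5 to 118 in batch B, or 0.08 and 0.94 as changes. These 3 were the called genes of the list.

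Of 13 tested genes of the RNA polymerase I machinery, which makes the rRNA precursor, 4 rose and 1 fell, with a median of -0.07, and ZNRD1, a subunit of the enzyme, was called (0.83). Of 11 tested regulators of ribosomal protein mRNAs, 2 rose and 3 fell. MYCN, a MYC family transcription factor, was 380 and 324 against 923 and 904 in batch A, and 1298 to 1546 against 1759 to 1862 in batch B, and was called with 0.71. EIF4EBP1, a repressor of cap-dependent translation under mTOR control, was called with a fall of 0.95 on the log2 scale, at -0.36 within batch A, where the groups overlapped, and -1.25 within batch B. LARP1 rose by 0.25 (SE 0.08), at 0.03 and 0.36 in the batches, while MTOR (0.20) did not pass and MYC was below the filter. Of 12 host transcripts of snoRNAs, 1 matched the table, C6orf48, which was called with 0.69.

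**Figure D5:**
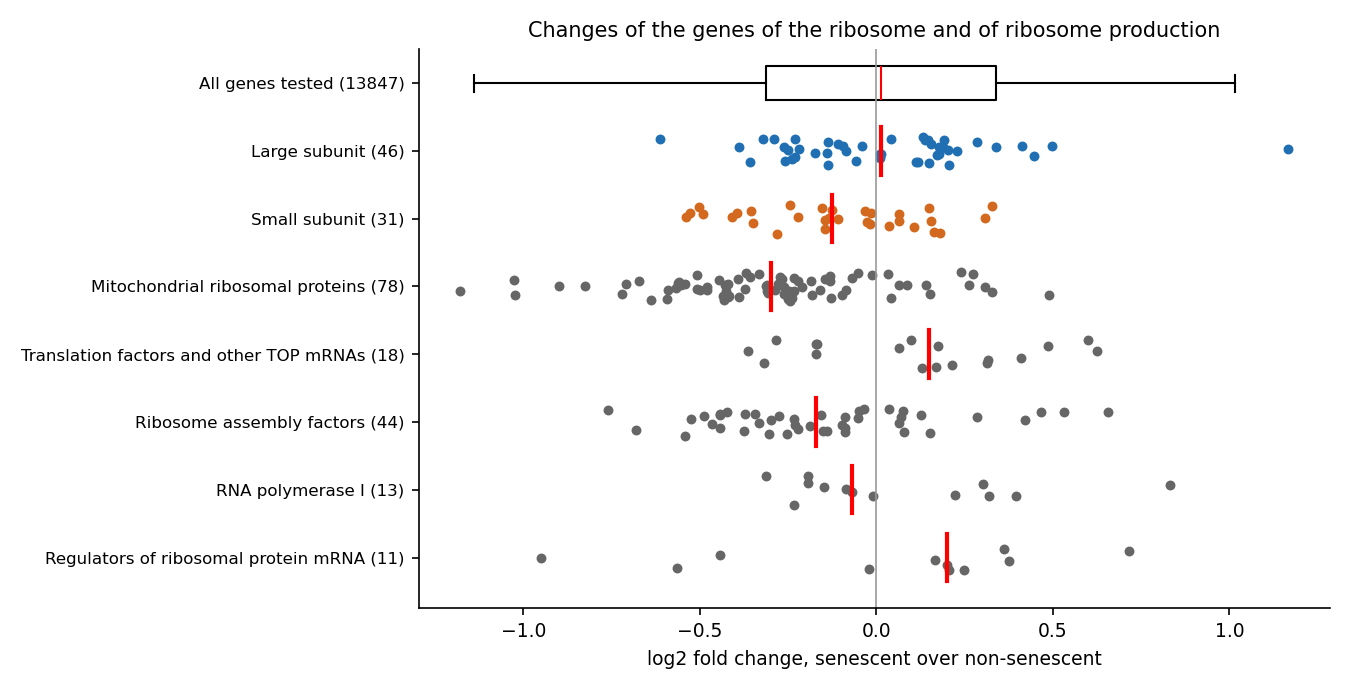
Log2 fold changes (senescent over non-senescent) of the genes of each list, with 1 point per tested gene and the median as a red line. All genes tested are drawn as a box from the 25th to the 75th percentile with whiskers to the 5th and 95th. The mitochondrial ribosomal proteins (median -0.30) lie furthest below the median of all genes (0.01), and the small subunit (-0.12) lies below the large subunit (0.01).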

How the data were processed

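Per the labels and the study's methods, CEL-seq2 reads of 12 samples were trimmed with cutadapt, quantified with Salmon 0.13.1 on GRCh38 and normalised by the authors with DESeq2. The deposited values are a signal per gene, read numbers divided by 1 size factor per library, called normalised read counts here. The same file holds the authors' deposited DESeq2 log2 fold changes, their errors, the Wald statistic (a score) and p-values, which were not used. All 196021 non-zero values were whole multiples (tolerance 0.001) of their column's smallest value, so whole reads were recovered and used as edgeR 4.0.16 and DESeq2 1.42.0 alternatives. The use of molecular identifiers and the transcript annotation are not given in the sources used here, and a read may not be an independent molecule. Salmon divides reads among similar transcripts, so members with near-identical copies are uncertain.

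The main test was limma 3.58.1 (trend, R 4.3.3) on log2(value + 1) for 13847 genes with a mean of at least 5 over 12 samples, with batch and group, adjusted over all genes, at adjusted p under 0.1 and, for calls, over 1.5-fold. Fold changes on this scale understate those of low genes. It was tested on simulated data. Named members were those called, the 5 largest rises and falls, members with a listed role and those with a batch interaction, and per list up to 4 called genes, and some genes are not reported here by name. Gene lists were matched by symbol, and 3 through RefSeq synonyms. The members and lists were chosen with earlier results of these data known. Replicate libraries of a group differed by more than sampling noise (chi-square per degree of freedom 4.28 to 8.05). Positions and lengths came from GENCODE v44 and promoter windows from RefSeq. Alternatives changed 1 choice at a time.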

Additional observations from a re-analysis of the deposited data

Results flagged for a closer look

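Within groups of 4 libraries of batch B, or of 6 over both batches, 5 values stood apart from the others of their group by Dixon's ratio, of 136 groups screened, where chance gives about 1 in 20. RPL23A was 9110 in the non-senescent library B3, against 12470 to 12664 in the other libraries of that group and batch. RPS2 was 6110 in the non-senescent library B3 and 5410 in the senescent library B1. RPL35 was 1230 in the senescent library B1. The members took 3.86% of the reads of the non-senescent library B3, below the other 5 libraries of its group.

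The response differed between the batches in RPL4, by the interaction of batch and group. Its log2 fold change was lower in batch B than in batch A by -0.358 (limma adjusted p = 0.0865), and RPL4 was higher in the senescent libraries of both batches.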

How the results depend on the processing

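RPL3 was called in all alternatives and RPLP2 in most. With the same total in every library, which lowered the median of all genes by 0.104, 6 members were called, 8 rose and 36 fell, the median was -0.139 and RPLP0 was at -0.0958. Without a batch term 1 was called, 5 rose and 2 fell. Batch B alone gave 10 risers, and no fold limit gave 41 calls. The number with an interaction was 0 without the filter and 5 with a mean of at least 20 or TMM scaling. Leaving out single libraries gave 1 to 2 calls, 11 to 24 risers, 22 to 28 fallers and medians from -0.0615 to -0.00491. The fewest risers (11) came without the non-senescent B3, and 1 call remained without the non-senescent B4, the senescent B3 or the senescent B4. The replicate block (same numbers in both groups) gave 13 risers, 24 fallers and the same 2 calls. Over all genes tested, same-numbered libraries did not deviate together (r from -0.05 to 0.02, and 1 of 8 batch B libraries correlated best with its own number). For the members alone this was not computed, and the B3 libraries had the lowest member share of both groups (3.86% and 3.56%). Added after seeing the data were the read-through rows, the scaling over other genes and the omission of both B3 libraries.

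Of the 30 members followed through the alternatives, which are not all those named above, 7 turned sign. None of the 7 was past the test in the reported fit except RPL8. In batch A alone the signs turned for RPL8 (0.00111), RPL23A (0.0757), RPS2 (0.158), RPS23 (0.111), RPS6 (0.107) and RPSA (0.137). RPL29, not among the 30, fell by 0.24 in the reported fit and was at 0.01 within batch A. RPLP0 turned to -0.00247 (upper quartile), -0.00174 (edgeR) and -0.0622 (batch B alone), -0.0135 (without both B3 libraries). Leaving out single libraries gave -0.0339 to 0.053 for RPLP0, -0.0522 to 0.0199 for RPS23 and -0.0635 to 0.0381 for RPS6. The cause was not tested. Each library's reads set the counting error, which is small for all members. The spread between libraries sets the limit.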
